A study of Macaca mulatta with 15 samples.

Results

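The lineage transcription factors of helper and regulatory T cells were followed in blood T cells of the rhesus macaque. The 9 genes were TBX21, EOMES, GATA3, RORA, FOXP3, IKZF2, MAF, AHR and BATF, out of 34884 genes in the count table. A row was taken where its deposited symbol was one of these names, which found 8 of the 9. AHR carries no symbol in the deposited table, and its row (ENSMMUG00000012203) was found through a separate table of gene names. All 9 passed the filter on low counts and were among the 14814 genes tested.

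Circulating T cells divide into CD4 and CD8 lineages and, within each, into naive cells and antigen-experienced memory cells. Each helper fate is tied to a leading transcription factor: T-bet (TBX21) to the interferon-gamma fate, GATA3 to the type 2 fate, RORA, with others, to the IL-17 fate and FOXP3 to regulatory T cells. EOMES works beside T-bet in cytotoxic cells, and MAF, AHR and BATF act across several of these fates.

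The libraries came from 2 animals, RhM22 and RhDBCb, each drawn after and before treatment. The agent was 2-hydroxypropyl-beta-cyclodextrin, a sugar ring that binds cholesterol, injected under the skin daily as 1 ml/kg of a solution of 15% (w/w) over at most 120 days. The before draws had no treatment. Each draw gave CD8 memory, CD8 naive, CD4 memory and CD4 naive cells, and 15 libraries were used, 2 for each subset and time except 1 for CD8 naive cells after treatment. The CD8 naive subset of the later RhDBCb draw was not analysed here. No label says by which surface markers the subsets were separated. With 1 draw per animal and time, treatment, day of drawing and handling of a draw cannot be told apart.

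Library totals lay between 44414963 and 71787211 counts. The 2 CD8 lineage markers summed to 894 to 1131 CPM (counts scaled to library size) in the CD8 libraries, against 1.45 to 4.38 CPM in the CD4 libraries. The 5 memory markers found summed to 7275 to 10368 CPM in memory libraries, against 2612 to 4895 CPM in naive libraries. CCR7, a homing receptor of naive and central memory cells, did not separate the CD4 subsets, with 6017 to 9553 CPM in CD4 memory cells and 5977 to 17550 CPM in CD4 naive cells. The CD8 memory library of RhDBCb before treatment stood apart in proliferation genes, with MKI67 at 112 CPM against 5.94 to 11.0 CPM in the other CD8 memory libraries. These are bulk libraries, so more cells with a transcript cannot be told apart from more transcript per cell.

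**Figure D1:**
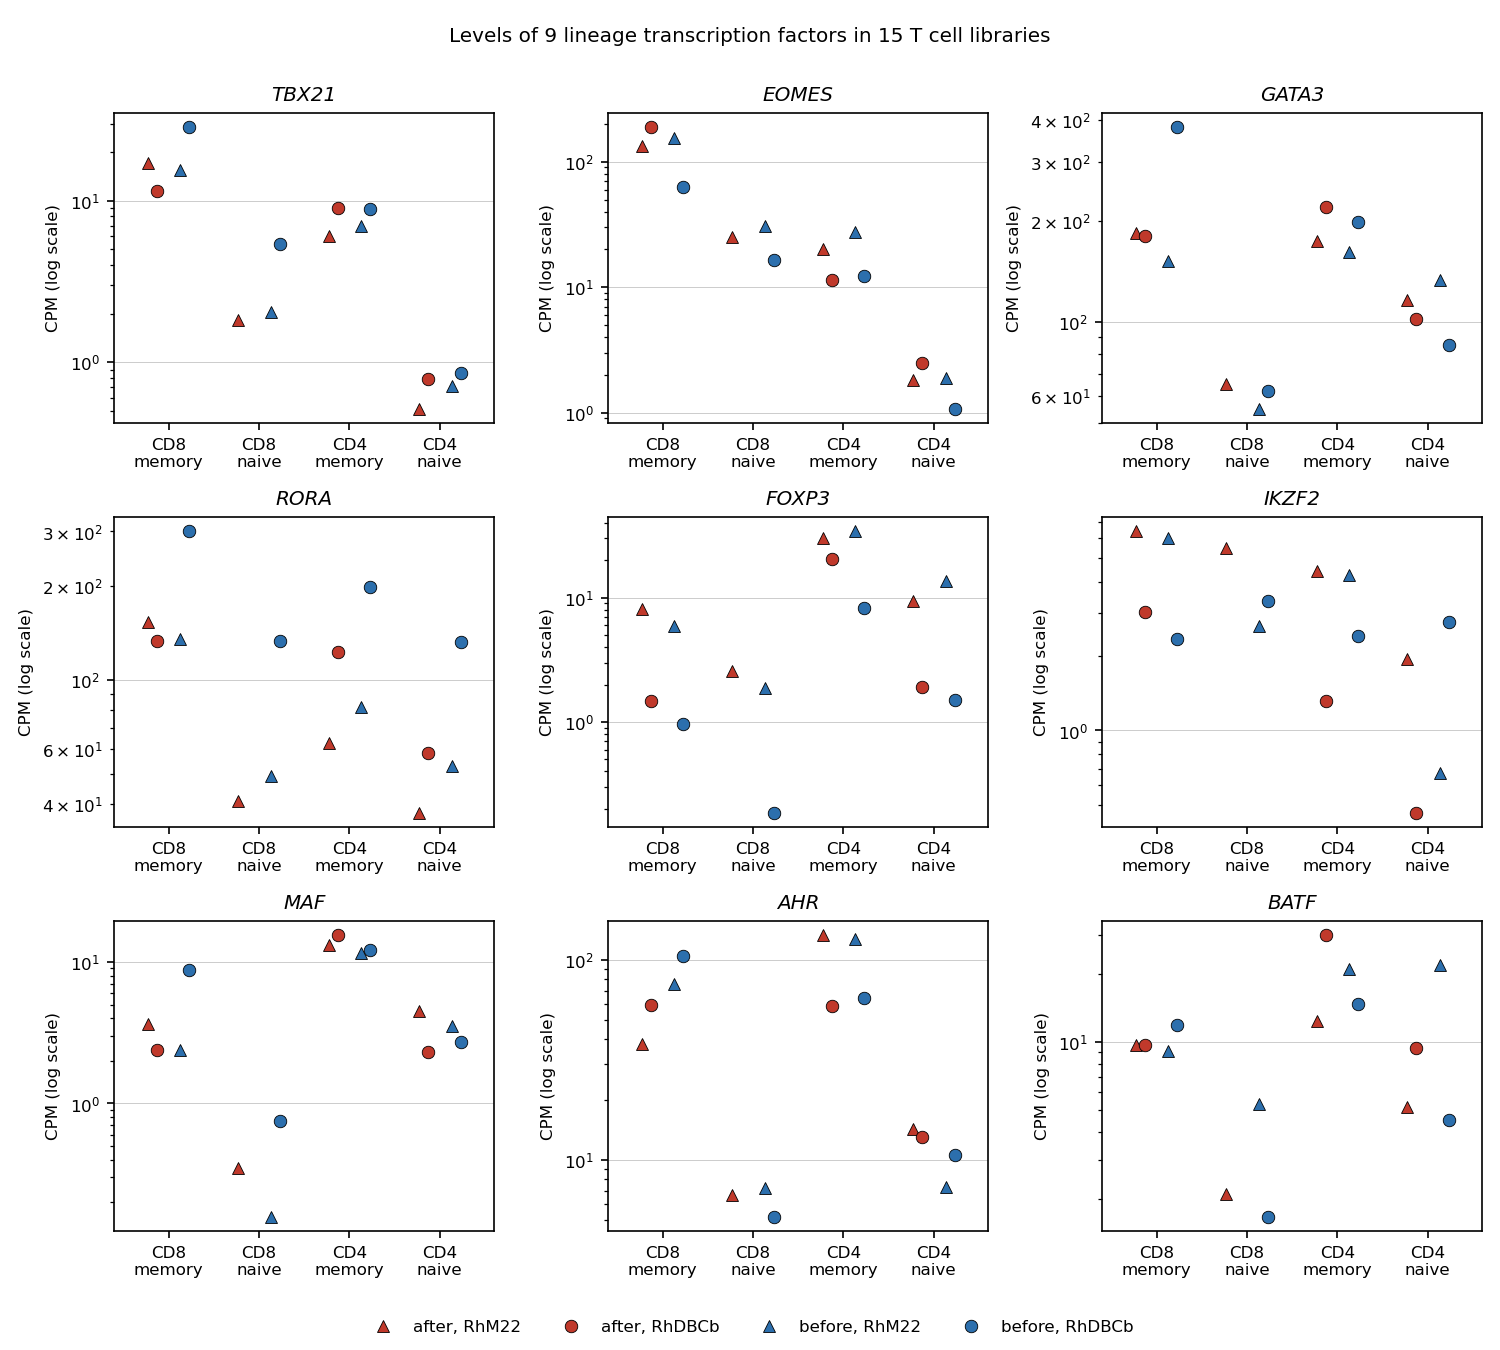
Level of each of the 9 genes in CPM (log axis) in every library, by subset; triangles stand for RhM22 and circles for RhDBCb, red for after and blue for before treatment. TBX21, EOMES, GATA3, MAF and AHR stand higher in memory than in naive cells of the same lineage in every library, while FOXP3 splits by animal inside every subset. The share of all genes that separate in this way was not counted.

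Memory cells differed from naive cells in most of these genes. Called at an adjusted p under 0.05 by edgeR, 7 of the 9 were higher in CD8 memory than in CD8 naive cells, where 5.31% of all genes tested were higher. In CD4 memory against CD4 naive cells 5 of the 9 were higher, where 3.89% of all genes tested were. None was lower in memory cells. The median log2 fold change of the 9 genes was 1.99 in the CD8 and 1.96 in the CD4 comparison, against 0.05 and -0.02 over all genes tested. TBX21, EOMES, FOXP3, MAF and AHR passed in both lineages, and GATA3 and RORA in the CD8 lineage alone; the difference between the lineages passed for none of them, as tested further on.

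CD8 cells differed from CD4 cells in EOMES, TBX21 and FOXP3 and, among naive cells, in MAF. In naive cells 2 of the 9 genes, EOMES and TBX21, were higher in CD8 than in CD4 cells, where 1.03% of all genes tested were higher, and 2, FOXP3 and MAF, were lower, where 0.635% were. In memory cells EOMES and TBX21 were again higher in CD8 cells, where 2.61% of all genes tested were higher, and FOXP3 alone of the 9 was lower, where 1.46% were.

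**Figure D2:**
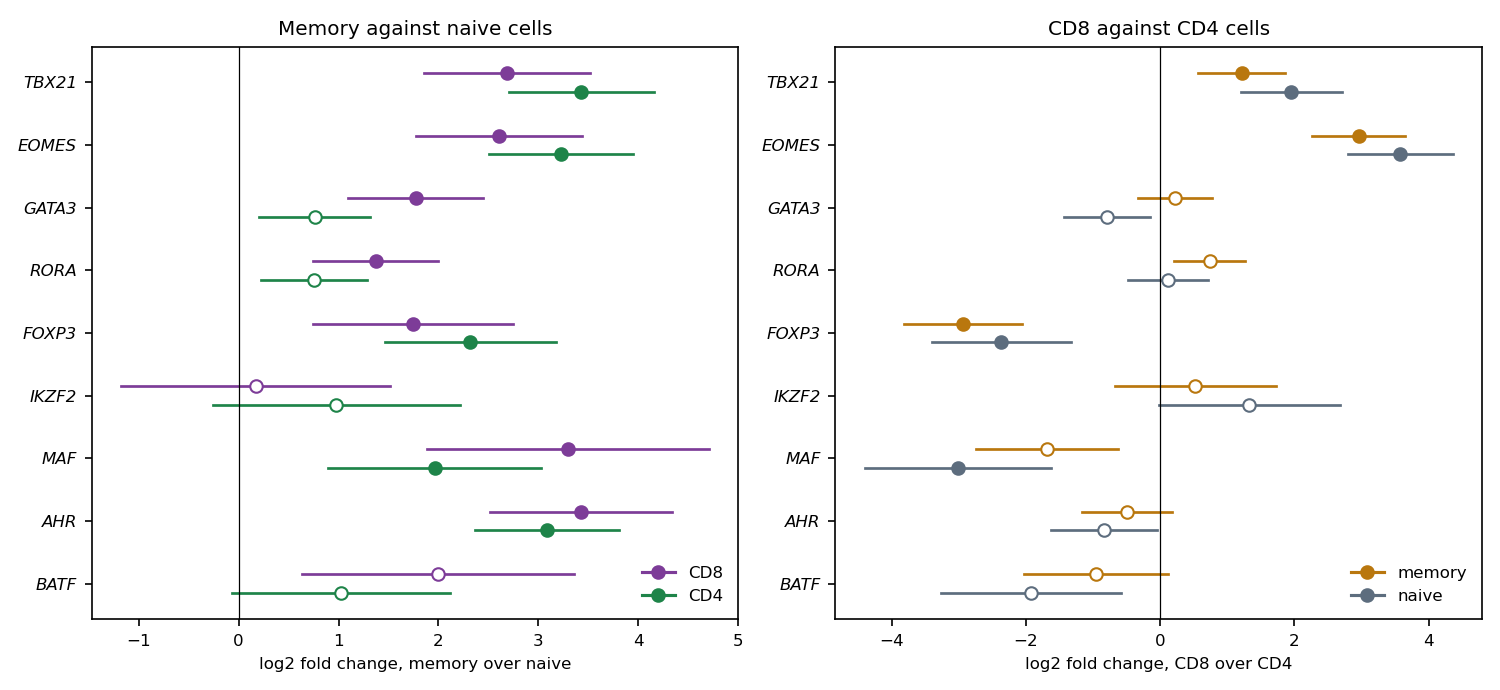
Log2 fold changes (x axis) of the 9 genes with 95% intervals, memory over naive cells on the left and CD8 over CD4 cells on the right; filled points passed an adjusted p under 0.05 and open points did not. AHR was 10.8-fold higher in CD8 memory than CD8 naive cells and TBX21 10.8-fold higher in CD4 memory than CD4 naive cells, and FOXP3 lies to the left of 0 in both CD8 against CD4 comparisons.

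TBX21 encodes T-bet, which drives interferon-gamma production and the effector programme. In CD8 memory cells it measured 17.0 CPM after and 15.5 CPM before treatment in RhM22, and 11.4 CPM after and 28.5 CPM before in RhDBCb. CD8 naive cells had 1.83 CPM after and 2.04 CPM before in RhM22 and 5.35 CPM before in RhDBCb. The lowest memory library was above the highest naive library. CD4 memory cells had 6.06 CPM after and 7.01 CPM before in RhM22, and 9.01 CPM after and 8.89 CPM before in RhDBCb. CD4 naive cells had 0.514 CPM after and 0.713 CPM before in RhM22, and 0.785 CPM after and 0.862 CPM before in RhDBCb. The 4 subsets did not overlap, in the order CD8 memory, CD4 memory, CD8 naive and CD4 naive. TBX21 was 6.46-fold higher in CD8 memory than CD8 naive cells (log2 2.69, SE 0.38, adjusted p = 0.00162) and 10.8-fold higher in CD4 memory than CD4 naive cells (log2 3.43, SE 0.33, adjusted p = 0.000227). It was 3.88-fold higher in CD8 naive than CD4 naive cells (adjusted p = 0.0123) and 2.32-fold higher in CD8 memory than CD4 memory cells (adjusted p = 0.0427).

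Both CD8 against CD4 calls of TBX21 were fragile. In naive cells the adjusted p was 0.0502 without the RhDBCb CD4 naive before library, 0.0632 when its CD8 naive before library was left out and 0.0537 without the RhM22 CD4 naive after library. In memory cells it was 0.0515 to 0.172 without any 1 of the 8 CD4 libraries or of the CD8 memory libraries other than RhDBCb after treatment.

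EOMES encodes Eomesodermin, the T-box relative of T-bet found in cytotoxic and central memory CD8 cells. In CD8 memory cells it measured 134 CPM after and 153 CPM before treatment in RhM22, and 189 CPM after and 62.8 CPM before in RhDBCb. CD8 naive cells had 25.1 CPM after and 30.8 CPM before in RhM22 and 16.5 CPM before in RhDBCb. The before library of RhDBCb was the lowest in each CD8 subset, yet CD8 memory and CD8 naive cells did not overlap. CD4 memory cells had 20.1 CPM after and 27.5 CPM before in RhM22, and 11.4 CPM after and 12.3 CPM before in RhDBCb. CD4 naive cells had 1.83 CPM after and 1.87 CPM before in RhM22, and 2.50 CPM after and 1.07 CPM before in RhDBCb. CD4 memory cells overlapped with CD8 naive cells, the neighbour above them, and not with CD4 naive cells. EOMES was 6.08-fold higher in CD8 memory than CD8 naive cells (log2 2.60, SE 0.38, adjusted p = 0.00192) and 9.36-fold higher in CD4 memory than CD4 naive cells (log2 3.23, SE 0.33, adjusted p = 0.000236). It was 12.0-fold higher in CD8 naive than CD4 naive cells (log2 3.58, SE 0.36, adjusted p = 0.000235) and 7.77-fold higher in CD8 memory than CD4 memory cells (log2 2.96, SE 0.32, adjusted p = 0.000315).

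Transcripts of natural killer (NK) cells, which also use both T-box factors, were measured beside TBX21 and EOMES. The 6 NK markers found of 7 summed to 34.7 to 83.5 CPM in CD8 memory, 11.4 to 24.6 CPM in CD8 naive, 5.53 to 8.08 CPM in CD4 memory and 4.62 to 7.12 CPM in CD4 naive cells. The sums were thus highest in CD8 memory cells, as TBX21 and EOMES were, while those of CD4 memory and CD4 naive cells overlapped, which the T-box levels did not. The CD8 memory library with the most TBX21 and the least EOMES, RhDBCb before treatment, had the lowest NK sum of its subset, 34.7 CPM. CD8 naive cells had more of these transcripts than CD4 memory cells, and less TBX21. Mean EOMES followed the order of the sums, at 24.2 CPM in CD8 naive and 17.8 CPM in CD4 memory cells, with overlapping libraries. Most of the CD8 memory sum came from KLRF1, at 19.1 to 61.9 CPM. KLRF1 reached at most 0.265 CPM in CD4 memory and 0.142 CPM in CD4 naive cells. TYROBP measured 4.42 to 17.9 CPM over all libraries, so most of the CD4 sums came from it. In any library NCR1 reached at most 2.06 CPM, NCAM1 1.80 CPM, SH2D1B 1.56 CPM and FCER1G 0.230 CPM. The part of these cells in the T-box levels was not tested.

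The balance of EOMES to TBX21 differed between libraries of 1 subset. CD8 memory cells held 7.87 EOMES reads per TBX21 read after and 9.87 before treatment in RhM22, against 16.5 after and 2.20 before in RhDBCb. The RhDBCb pair therefore enclosed the RhM22 pair on both sides. In CD4 memory cells the ratio was 3.31 after and 3.92 before in RhM22, and 1.26 after and 1.39 before in RhDBCb, so it was higher in RhM22 at both times. The ratio compares libraries only, since a longer transcript gives more reads.

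**Figure D3:**
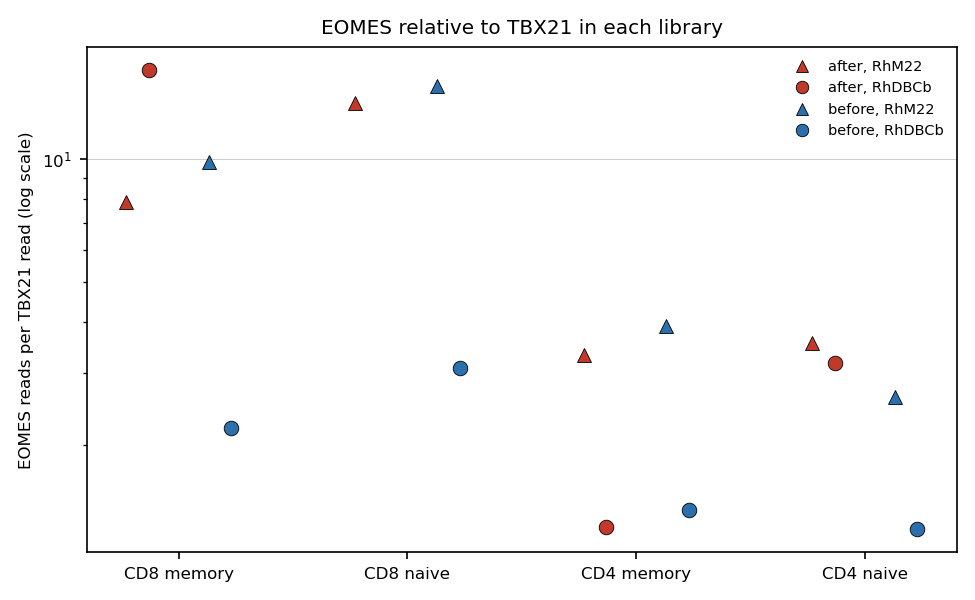
EOMES reads per TBX21 read (log axis) in each library by subset; triangles stand for RhM22 and circles for RhDBCb, red for after and blue for before treatment. In CD8 memory cells RhDBCb had the highest ratio of that subset after treatment, 16.5, and the lowest before, 2.20.

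GATA3 directs the type 2 fate and is also needed for T cell maintenance. Levels in CD8 memory cells were 184 CPM after and 151 CPM before treatment in RhM22, and 181 CPM after and 381 CPM before in RhDBCb. Values in CD8 naive cells were 65.2 CPM after and 55.1 CPM before in RhM22 and 62.2 CPM before in RhDBCb. The 3 naive values were close together, and the before library of RhDBCb stood far above the other memory libraries. The CD4 memory libraries had 174 CPM after and 161 CPM before in RhM22, and 220.4 CPM after and 199 CPM before in RhDBCb. The CD4 naive libraries had 116 CPM after and 133 CPM before in RhM22, and 102 CPM after and 85.4 CPM before in RhDBCb. CD8 memory and CD4 memory cells overlapped, and CD8 naive cells were the lowest subset, below every CD4 naive library. GATA3 was 3.41-fold higher in CD8 memory than CD8 naive cells (log2 1.77, SE 0.31, adjusted p = 0.00519). In CD4 memory against CD4 naive cells the log2 difference of 0.76 (SE 0.25) did not pass (adjusted p = 0.115); it passed without the RhDBCb CD8 memory before library (adjusted p = 0.0357) or that of RhM22 (adjusted p = 0.0345).

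RORA encodes ROR-alpha, a nuclear receptor that takes part in the IL-17 programme. It measured in CD8 memory cells 153 CPM after and 135 CPM before treatment in RhM22, and 133 CPM after and 301 CPM before in RhDBCb. CD8 naive cells had 40.9 CPM after and 49.1 CPM before in RhM22 and 133 CPM before in RhDBCb. The before libraries of RhDBCb were the highest of both CD8 subsets. CD4 memory cells had 62.6 CPM after and 81.9 CPM before in RhM22, and 123 CPM after and 199 CPM before in RhDBCb. CD4 naive cells had 37.4 CPM after and 53.1 CPM before in RhM22, and 58.5 CPM after and 132 CPM before in RhDBCb. Every neighbouring pair in the order CD8 memory, CD4 memory, CD8 naive and CD4 naive overlapped.

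Within the animals RORA still separated CD8 memory from CD8 naive cells. It was 2.59-fold higher (log2 1.37, SE 0.29, adjusted p = 0.0128), and higher in all 3 draws that had both subsets, by 1.17 to 1.91 on the log2 scale. In CD4 memory against CD4 naive cells the log2 difference of 0.75 (SE 0.24) missed the threshold (adjusted p = 0.106), although all 4 draws lay between 0.59 and 1.07; it passed without the RhDBCb CD8 memory after library (adjusted p = 0.0190) or that of RhM22 (adjusted p = 0.0222). CD8 memory against CD4 memory cells gave a log2 difference of 0.74 (adjusted p = 0.137), which passed without the RhDBCb CD8 memory after library (log2 1.03, adjusted p = 0.0119). Of 3 markers of mucosal-associated invariant T cells, an innate-like population, 2 were found. They summed to 67.7 to 149 CPM in CD8 memory and 19.8 to 44.2 CPM in CD8 naive cells. The sums were 8.43 to 21.5 CPM in CD4 memory and 13.6 to 26.5 CPM in CD4 naive cells. Over all libraries ZBTB16 measured 7.65 to 141 CPM and SLC4A10 0 to 9.60 CPM, so the CD8 memory sums were mostly ZBTB16. The part of these cells in the RORA levels was not tested.

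FOXP3 is the defining factor of regulatory T cells. In CD8 memory cells it measured 8.18 CPM after and 5.94 CPM before treatment in RhM22, and 1.48 CPM after and 0.967 CPM before in RhDBCb. CD8 naive cells had 2.57 CPM after and 1.88 CPM before in RhM22 and 0.185 CPM, or 14 counts, before in RhDBCb. Naive cells of RhM22 exceeded memory cells of RhDBCb, so the CD8 subsets overlapped between the animals, and memory exceeded naive cells in each draw that had both. CD4 memory cells had 30.1 CPM after and 34.4 CPM before in RhM22, and 20.3 CPM after and 8.29 CPM before in RhDBCb. CD4 naive cells had 9.34 CPM after and 13.6 CPM before in RhM22, and 1.91 CPM after and 1.49 CPM before in RhDBCb. Both naive libraries of RhM22 were above the RhDBCb memory library before treatment, and CD4 exceeded CD8 cells in each draw that had both. FOXP3 was 4.99-fold higher in CD4 memory than CD4 naive cells (log2 2.32, SE 0.39, adjusted p = 0.00497) and 3.35-fold higher in CD8 memory than CD8 naive cells (log2 1.74, SE 0.46, adjusted p = 0.0376). It was lower in CD8 memory than CD4 memory cells (log2 -2.94, SE 0.40, adjusted p = 0.00161) and in CD8 naive than CD4 naive cells (log2 -2.37, SE 0.47, adjusted p = 0.0260).

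The CD4 memory and the memory lineage calls of FOXP3 held without any 1 library, and its other calls did not. For CD8 memory against CD8 naive cells the adjusted p was 0.0583 to 0.0981 without any 1 CD8 memory library, 0.116 without the RhDBCb CD8 naive before library and 0.0542 and 0.0566 without the CD4 memory before libraries of both animals, RhDBCb and RhM22, in turn. For CD8 naive against CD4 naive cells it was 0.0794 without the RhDBCb CD8 naive before library, 0.0506 without its CD4 naive after and 0.0502 without its CD8 memory after library, and 0.0961 and 0.0605 without the CD4 naive before and after libraries of RhM22.

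IKZF2 encodes Helios, an Ikaros-family factor of regulatory T cells and of some CD8 cells. Levels in CD8 memory cells were 6.42 CPM after and 6.02 CPM before treatment in RhM22, and 3.03 CPM after and 2.34 CPM before in RhDBCb. Values in CD8 naive cells were 5.48 CPM after and 2.64 CPM before in RhM22 and 3.35 CPM before in RhDBCb. Memory and naive cells overlapped, with RhM22 above RhDBCb in memory cells. The CD4 memory libraries had 4.44 CPM after and 4.25 CPM before in RhM22, and 1.32 CPM after and 2.41 CPM before in RhDBCb. The CD4 naive libraries had 1.94 CPM after and 0.672 CPM before in RhM22, and 0.464 CPM after and 2.75 CPM before in RhDBCb. The naive before library of RhDBCb lay above both of its memory libraries, and every neighbouring pair of subsets overlapped. No subset comparison of IKZF2 passed (adjusted p = 0.932 for CD8 memory against naive, 0.387 for CD4 memory against naive, 0.730 for CD8 against CD4 memory and 0.555 for CD8 against CD4 naive cells). Without the 4 before libraries of RhDBCb, IKZF2 was higher in CD4 memory than CD4 naive cells (log2 2.01, SE 0.40, adjusted p = 0.0356), where the fit with all libraries gave 0.98 (SE 0.56).

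MAF encodes c-Maf, a factor of follicular helper, type 2 and IL-10-producing cells. Its level in CD8 memory cells was 3.67 CPM after and 2.39 CPM before treatment in RhM22, and 2.38 CPM after and 8.71 CPM before in RhDBCb. Values in CD8 naive cells were 0.350 CPM after and 0.158 CPM before in RhM22 and 0.755 CPM before in RhDBCb. Memory and naive cells did not overlap, and the before library of RhDBCb was the highest of both subsets. The CD4 memory libraries had 13.2 CPM after and 11.6 CPM before in RhM22, and 15.5 CPM after and 12.0 CPM before in RhDBCb. The CD4 naive libraries had 4.48 CPM after and 3.50 CPM before in RhM22, and 2.32 CPM after and 2.73 CPM before in RhDBCb. CD4 memory libraries were above every other library, CD4 naive cells overlapped with CD8 memory cells, and CD8 naive cells lay below all the rest. MAF was 9.82-fold higher in CD8 memory than CD8 naive cells (log2 3.30, SE 0.65, adjusted p = 0.00946) and 3.90-fold higher in CD4 memory than CD4 naive cells (log2 1.96, SE 0.49, adjusted p = 0.0374). It was lower in CD8 naive than CD4 naive cells (log2 -3.02, SE 0.63, adjusted p = 0.0339), and the log2 difference of -1.69 (SE 0.48) between CD8 memory and CD4 memory cells did not pass (adjusted p = 0.0827).

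Calls of MAF outside CD8 memory against naive cells were lost in many fits without 1 library, although the differences kept their direction. The CD4 memory call was lost without any 1 CD4 library other than the RhM22 CD4 naive after library (adjusted p = 0.0682 to 0.159), while the log2 difference over all 15 such fits was 1.66 to 2.38. The call in naive cells was lost without any 1 CD4 library other than the RhDBCb CD4 naive after library (adjusted p = 0.0538 to 0.0870), while the log2 difference over all 14 such fits was -3.77 to -2.58. CD8 memory against CD4 memory cells passed without the RhDBCb CD8 naive before library (adjusted p = 0.0464) or that of RhM22 (adjusted p = 0.0451).

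AHR encodes the aryl hydrocarbon receptor, a ligand-activated sensor that acts in IL-17 and IL-22 producing cells and in tissue-resident cells. Its level in CD8 memory cells was 37.8 CPM after and 75.4 CPM before treatment in RhM22, and 59.8 CPM after and 104 CPM before in RhDBCb. Values in CD8 naive cells were 6.66 CPM after and 7.21 CPM before in RhM22 and 5.18 CPM before in RhDBCb. Memory and naive cells did not overlap, and each memory library had less after than before treatment in the same animal. Values in CD4 memory cells were 133 CPM after and 127 CPM before in RhM22, and 58.9 CPM after and 64.8 CPM before in RhDBCb. The CD4 naive libraries had 14.2 CPM after and 7.31 CPM before in RhM22, and 13.0 CPM after and 10.6 CPM before in RhDBCb. Memory and naive cells did not overlap here either, CD4 memory overlapped with CD8 memory cells, and RhM22 was above RhDBCb in CD4 memory cells at both times. AHR was 10.8-fold higher in CD8 memory than CD8 naive cells (log2 3.43, SE 0.42, adjusted p = 0.000711) and 8.49-fold higher in CD4 memory than CD4 naive cells (log2 3.09, SE 0.33, adjusted p = 0.000296). Neither CD8 against CD4 comparison of AHR passed (log2 -0.49, adjusted p = 0.504 in memory cells, and log2 -0.83, adjusted p = 0.496 in naive cells).

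BATF, an AP-1 family factor, pairs with JUN proteins and IRF4 in effector and IL-17 cells. Levels in CD8 memory cells were 9.71 CPM after and 9.09 CPM before treatment in RhM22, and 9.71 CPM after and 11.9 CPM before in RhDBCb. Values in CD8 naive cells were 2.11 CPM after and 5.33 CPM before in RhM22 and 1.67 CPM before in RhDBCb. The CD8 subsets did not overlap. Values in CD4 memory cells were 12.4 CPM after and 21.0 CPM before in RhM22, and 29.9 CPM after and 14.8 CPM before in RhDBCb. The CD4 naive libraries had 5.15 CPM after and 21.9 CPM before in RhM22, and 9.40 CPM after and 4.52 CPM before in RhDBCb. The CD4 naive before library of RhM22 was as high as its memory library, so the CD4 subsets overlapped. No comparison of BATF between subsets passed. The log2 difference was 1.99 (SE 0.62, adjusted p = 0.0750) for CD8 memory against CD8 naive cells and 1.03 (SE 0.50, adjusted p = 0.292) for CD4 memory against CD4 naive cells. It was -0.96 (SE 0.49, adjusted p = 0.396) for CD8 against CD4 memory and -1.92 (SE 0.61, adjusted p = 0.227) for CD8 against CD4 naive cells. The CD8 memory difference passed without the RhDBCb CD4 naive before library (adjusted p = 0.0493) or that of RhM22 (adjusted p = 0.0468), and without the RhM22 CD8 naive before library (adjusted p = 0.0392).

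The 4 before libraries of RhDBCb were also left out together. TBX21, EOMES, MAF and AHR stayed higher in memory cells of both lineages, FOXP3 in CD4 and GATA3 and RORA in CD8 memory cells. The calls lost were FOXP3 in CD8 memory against CD8 naive cells (adjusted p = 0.125), FOXP3 and TBX21 in CD8 naive against CD4 naive cells (adjusted p = 0.0877 and 0.171) and TBX21 in CD8 memory against CD4 memory cells (adjusted p = 0.210). MAF was then lower in CD8 memory than CD4 memory cells (log2 -2.29, adjusted p = 0.0192).

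Whether the step from naive to memory differed between CD8 and CD4 cells was tested directly. None of the 9 genes passed, where 0.0203% of all genes tested (3 genes) did, 713 genes had an unadjusted p under 0.05 and DESeq2 called 86. GATA3 had the smallest p of the 9, with a step larger in CD8 cells by 1.01 (SE 0.38, adjusted p = 0.933) on the log2 scale and a 95% interval of 0.17 to 1.85. The interval for AHR was -0.70 to 1.38 and that for FOXP3 -1.81 to 0.66, so neither a larger nor a smaller step in CD8 cells was detectable for these genes.

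Genes of the same programmes were counted beside the factors. In CD8 memory against CD8 naive cells 7 of 13 genes of the interferon-gamma programme were higher, 6 of 11 of the type 2, 5 of 13 of the IL-17, 7 of 15 of the regulatory and 11 of 14 of the cytotoxic programme, where 5.31% of all genes tested were higher. In CD4 memory against CD4 naive cells the counts were 6, 4, 6, 5 and 8, where 3.89% of all genes tested were higher. Their median log2 fold changes, over the tested genes of each list in the same order, were 3.17, 1.12, 3.63, 2.59 and 2.54 in CD8 and 1.26, 2.19, 2.89, 2.18 and 2.07 in CD4 cells. IL12RB2, the inducible IL-12 receptor chain, was higher by 6.38 (SE 0.61, adjusted p = 0.000227) on the log2 scale in CD4 memory cells. CCR4, a homing receptor of type 2 and regulatory cells, was higher by 5.02 (SE 0.60, adjusted p = 0.000664) in CD8 and by 3.23 (SE 0.43, adjusted p = 0.00119) in CD4 memory cells. CCR6, a homing receptor of IL-17 cells, was higher by 4.68 (SE 0.44, adjusted p = 0.000351) in CD8 memory cells. The IL-17 list had 1 gene that was lower in memory cells of each lineage, CTSH, a lysosomal protease (log2 -1.42, SE 0.23, adjusted p = 0.00311 in CD8 and log2 -1.22, SE 0.20, adjusted p = 0.00485 in CD4 cells).

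Genes of the regulatory list were called higher in memory cells of both lineages, as were genes of the other programmes. Between CD8 and CD4 memory cells, where FOXP3 was lower in CD8 cells, 2 of the 15 regulatory genes were lower and 0 higher. Of all genes tested 1.46% were lower and 2.61% higher there. TIGIT, an inhibitory receptor, was higher by 3.92 (SE 0.53, adjusted p = 0.00121) in CD8 and 3.77 (SE 0.41, adjusted p = 0.000355) in CD4 memory cells. TNFRSF4, the costimulatory receptor OX40, was higher by 4.02 (SE 0.94, adjusted p = 0.0222) in CD8 memory cells. IKZF4, which encodes the Ikaros-family factor Eos, was lower in CD8 memory cells (log2 -2.02, SE 0.52, adjusted p = 0.0340), the 1 regulatory gene that was. In the cytotoxic list GZMK, a granzyme, was higher by 2.97 (SE 0.36, adjusted p = 0.000709) in CD8 and 4.59 (SE 0.32, adjusted p = 0.000125) in CD4 memory cells, and GNLY, the pore-forming granulysin, by 3.03 (SE 0.59, adjusted p = 0.00942) in CD8 memory cells. ID2, an inhibitor of E proteins, was the 1 cytotoxic gene that was lower, in CD4 memory cells (log2 -0.91, SE 0.19, adjusted p = 0.0179).

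Genes around AHR and BATF were set against the same shares, 5.31% of all genes tested higher and 3.1% lower in CD8 memory cells and 3.89% higher and 1.71% lower in CD4 memory cells. Of 9 genes of the AHR pathway 1 was higher in CD8 and 2 in CD4 memory cells, among them CYP1B1, an AHR target enzyme, by 1.99 (SE 0.55, adjusted p = 0.0470) in CD8 and 2.05 (SE 0.47, adjusted p = 0.0258) in CD4 cells. Of 11 partners of BATF 2 were higher in CD8 memory cells, IRF8 by 1.50 (SE 0.39, adjusted p = 0.0353) and FOSL2 by 0.82 (SE 0.19, adjusted p = 0.0226), and 1 was lower in CD4 memory cells, JUNB, an AP-1 subunit (log2 -0.69, SE 0.15, adjusted p = 0.0170). The median log2 fold change was 0.40 in CD8 and 0.54 in CD4 cells for the AHR list and 0.59 and -0.16 for the BATF list. Of 11 transcription factors of naive cells 6 were lower in CD8 memory cells, where 3.1% of all genes tested were lower, and 3 in CD4 memory cells, where 1.71% were, and none was higher. BACH2, a repressor that keeps T cells from effector fates, was lower in CD8 (log2 -2.37, SE 0.43, adjusted p = 0.00637) and in CD4 memory cells (log2 -2.57, SE 0.40, adjusted p = 0.00331). Of 20 family relatives of the members 2 were higher and 2 lower in CD8 memory cells, and 2 higher and 1 lower in CD4 memory cells.

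Over the treatment period none of the 9 factors passed a test over all subsets. One gene of all those tested was called by edgeR (0.00675%), 1526 had an unadjusted p under 0.05 and DESeq2 called 177. RORA had the smallest p of the 9, with a log2 difference of -0.58 after against before (SE 0.17, adjusted p = 0.334, 95% interval -0.94 to -0.23), and it was the only one that DESeq2 called (log2 -0.59, adjusted p = 0.0462). After-minus-before differences of RORA were -0.51 to 0.18 in the 4 pairs of RhM22 and -1.18 to -0.69 in the 3 pairs of RhDBCb. Without the 4 before libraries of RhDBCb the estimate rested on the pairs of RhM22 alone, so it is no separate check. The log2 difference of RORA was then -0.23. The 95% intervals of the other members all included 0, from -0.45 to 0.32 for GATA3, the narrowest, to -1.04 to 0.68 for IKZF2, the widest. Of the lists above none had a gene called after against before treatment over all subsets.

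**Figure D4:**
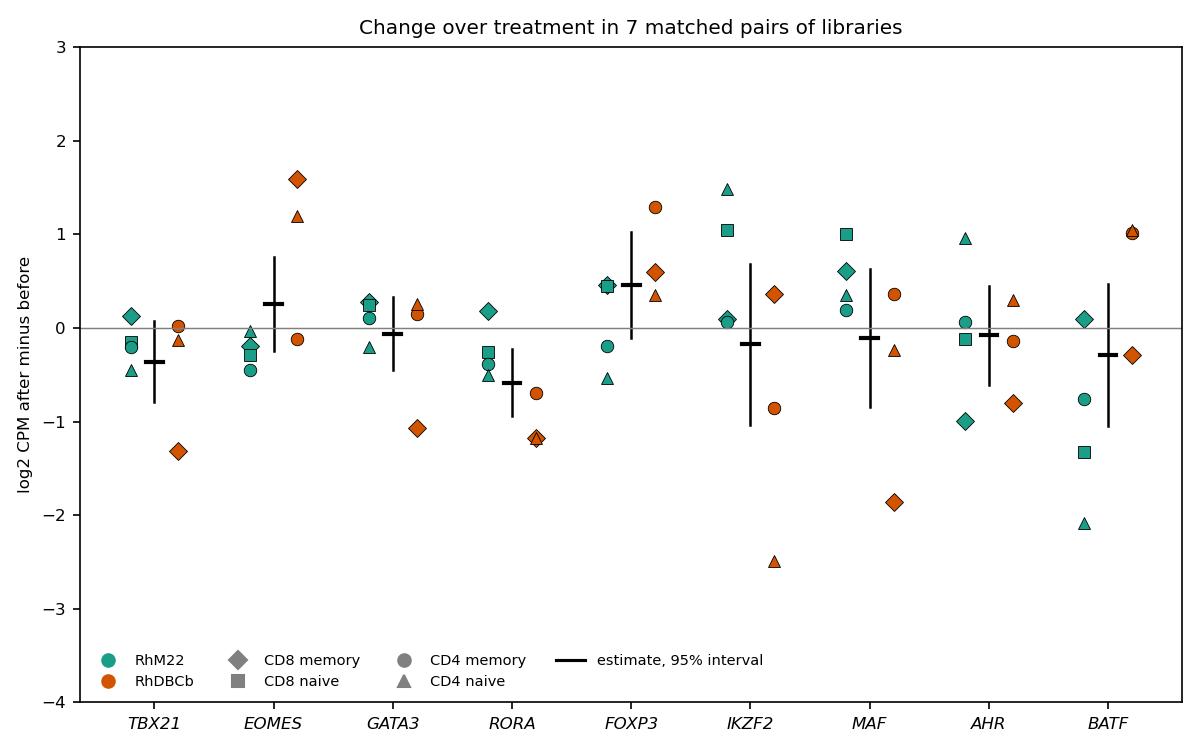
Difference in log2 CPM, after minus before treatment (y axis), for each of the 7 pairs of libraries of 1 animal and subset; green stands for RhM22, orange for RhDBCb, the marker shape for the subset, and black bars for the estimate over all subsets with its 95% interval. RORA lies below 0 in the 3 pairs of RhDBCb, between -1.18 and -0.69, and EOMES reaches 1.59 in its CD8 memory pair.

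Each subset was also tested alone, after against before treatment. No member passed in CD8 memory, CD8 naive, CD4 memory or CD4 naive cells, where edgeR called 0% of genes in each and 216, 148, 230 and 603 genes had an unadjusted p under 0.05; DESeq2 called 0 genes in each of the first 3 and 9 in CD4 naive cells. The largest differences of members were -0.88 for AHR in CD8 memory (SE 0.43, adjusted p = 1) and -0.93 for IKZF2 in CD4 naive cells (SE 0.84, adjusted p = 0.898). In CD8 memory cells AHR measured 37.8 CPM after and 75.4 CPM before in RhM22. In RhDBCb it measured 59.8 CPM after and 104 CPM before, so the 2 pairs had the same sign. Over the 4 pairs of RhM22 AHR was above 0 in 2. The IKZF2 pairs in CD4 naive cells had opposite signs, 1.49 in RhM22 and -2.49 in RhDBCb. RORA in CD4 naive cells had an unadjusted p under 0.05 by edgeR (log2 -0.85, SE 0.35, adjusted p = 0.897), with both pairs below 0. Whether the treatment difference varied between subsets passed for no member, where edgeR called 0% of genes, 71 had an unadjusted p under 0.05 and DESeq2 called 0.

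The change from the before to the after draw differed between the animals for part of the genes tested. With 1 draw per animal and time, a difference between animals cannot be told apart from 1 between draws. The difference in change, RhM22 minus RhDBCb, passed for 4.58% of genes tested, and for none of the 9 members by edgeR, among which 5 had an unadjusted p under 0.05. DESeq2 called 3 members. EOMES had a log2 difference in change of -1.19 (SE 0.35, adjusted p = 0.0713 by edgeR and 0.0154 by DESeq2), BATF of -1.79 (SE 0.53, adjusted p = 0.0727 and 0.0138) and RORA of 0.81 (SE 0.24, adjusted p = 0.0750 and 0.0262). IKZF2 stood at 1.74 (SE 0.69, adjusted p = 0.168) and MAF at 1.35 (SE 0.60, adjusted p = 0.224). Single libraries decided several of these tests: edgeR called EOMES without the RhDBCb CD4 memory after library (log2 -1.62, adjusted p = 0.00177), and without its CD8 memory before library it called BATF (adjusted p = 0.0243), RORA (0.0466) and IKZF2 (0.0497). BATF also passed without the RhM22 CD8 memory before library (adjusted p = 0.0332) and RORA without the RhDBCb CD4 memory after library (adjusted p = 0.0247).

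In RhM22 none of the 9 passed after against before treatment, where edgeR called 0.0608% of genes, 974 had an unadjusted p under 0.05 and DESeq2 called 248. BATF had the largest difference, log2 -1.13 (SE 0.36, adjusted p = 0.488), with differences of -2.08 to 0.10 in its 4 pairs, 1 of them above 0. IKZF2 and MAF were above 0 in all 4 pairs of RhM22, by 0.06 to 1.49 and by 0.19 to 1.01, and did not pass (adjusted p = 0.942 and 0.957).

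In RhDBCb 1 member was lower and 1 higher after treatment, where 4.62% of genes tested were lower and 5.49% higher. Among 9 members, 1 call in a direction lies near those shares. RORA fell to 133 CPM after against 301 CPM before in CD8 memory, 123 against 199 CPM in CD4 memory and 58.5 against 132 CPM in CD4 naive cells (log2 -1.04, SE 0.18, adjusted p = 0.00568). EOMES stood at 189 CPM after against 62.8 CPM before in CD8 memory, 11.4 against 12.3 CPM in CD4 memory and 2.50 against 1.07 CPM in CD4 naive cells (log2 0.93, SE 0.27, adjusted p = 0.0419). The RORA call held without any 1 library, while that of EOMES was lost in 13 of 15 fits that each left out 1 library, with adjusted p of 0.0523 to 0.220; it was kept only without the RhDBCb CD4 memory after library or the RhM22 CD4 memory before library. Without the RhDBCb CD8 memory after library the EOMES difference was 0.62. These tests compare 1 draw after with 1 draw before over the subsets, so their p-values do not measure spread between draws. Fits that leave out 1 library keep both draws and cannot test that spread either. FOXP3 was above 0 in all 3 pairs of RhDBCb, by 0.35 to 1.29, and did not pass (log2 0.96, SE 0.36, adjusted p = 0.114). IKZF2 did not pass either (log2 -1.18, adjusted p = 0.173), except without the RhDBCb CD8 memory before library (log2 -1.59, adjusted p = 0.0456).

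Other transcripts also differed between the 2 draws of RhDBCb, where 5.49% of all genes tested were higher and 4.62% lower after treatment. Of the 9 genes of the AHR pathway 1 was higher after treatment, HSP90AB1, a chaperone that holds AHR in the cytoplasm (log2 0.59, SE 0.17, adjusted p = 0.0413), and 1 was lower, TIPARP, an AHR target (log2 -1.77, SE 0.28, adjusted p = 0.00309). Of the 11 partners of BATF 1 was higher, IRF8 (log2 1.13, SE 0.25, adjusted p = 0.0145), and 2 were lower, the AP-1 subunits JUN (log2 -2.13, SE 0.29, adjusted p = 0.00136) and FOS (log2 -1.40, SE 0.22, adjusted p = 0.00342). In lists of 9 and 11 genes, 1 called gene in a direction lies near those shares. These lists were picked out for RhDBCb after their values were seen. The 6 platelet markers summed to 13.1 to 25.4 CPM in the RhDBCb libraries after treatment, against 2.14 to 4.25 CPM before. The part of these shifts in the RORA and EOMES differences was not tested.

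The animals were also set side by side, once the data had been looked at. They differed in 3 of the 9 genes over all libraries, near the share of all genes tested that were called, 35.8%. FOXP3 was 5.11-fold higher in RhM22 than in RhDBCb (log2 2.35, SE 0.29, adjusted p = 7.99e-05), higher in 7 of 7 matched pairs of subset and time by 0.57 to 3.16. RORA was lower in RhM22 (log2 -0.94, SE 0.17, adjusted p = 0.000855), in 6 of 7 pairs. TBX21 was lower in RhM22 (log2 -0.55, SE 0.20, adjusted p = 0.0425), again in 6 of 7 pairs, but the call held only without the RhDBCb CD4 naive before, CD4 memory before or CD8 memory after library, or the CD8 memory after library from RhM22; in the other 11 fits that left out 1 library the adjusted p was 0.0568 to 0.167. EOMES passed without the CD4 naive after (adjusted p = 0.0366) or CD8 memory after library of RhDBCb (adjusted p = 0.0153), and IKZF2 without its CD4 naive before library (adjusted p = 0.0168). Of the 15 regulatory genes 4 were higher and 1 was lower in RhM22, near the 35.8% of all genes tested that were called. Each animal stands for itself alone, so these values describe 2 animals.

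For each factor the 2 genes with the most similar profile over the 15 libraries were picked by Pearson correlation of log2 CPM among 8282 genes. These correlations are descriptions, since the libraries share subsets, animals and draws. They were SEMA4A (r = 0.980) and APOBEC3G (0.978) for TBX21, KIAA1217 (0.967) and CPD (0.965) for EOMES, and GRN (0.960) and SLC2A4RG (0.943) for GATA3. RORA came closest to IL12RB1 (0.956) and PDIA6 (0.953), FOXP3 to COX20 (0.937) and TP73 (0.936), and IKZF2 to IFT88 (0.848) and CLEC12A (0.847). MAF came closest to TNFRSF4 (0.967) and DPYSL2 (0.949), AHR to TTC39B (0.962) and ADAM19 (0.958), and BATF to PREB (0.935) and MID1IP1 (0.920). IKZF2 had the weakest closest match of the 9. Among the members themselves TBX21 and EOMES (r = 0.846), GATA3 and AHR (0.840) and GATA3 and MAF (0.831) were most alike, while FOXP3 with TBX21 (0.022) and with IKZF2 (0.014) showed next to no likeness.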

How the data were processed

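RNA of 15 blood T cell libraries was prepared with the RNeasy Micro kit and SMART-Seq v4, per the labels' protocols. The authors deposited expected counts per gene, not scaled, and FPKM. Cutadapt 1.18, STAR 2.7.6a, RSEM 1.3.3 and the builds Mmul_10 and rheMac10 stand in the submitters' processing notes. The deposited FPKM values divide by lengths near the whole gene span (median ratio to the RefSeq span 0.932 over 11702 genes), so levels were not compared between genes. Genes without a symbol took 3.40% to 8.29% of counts. No filter by the authors is given in the sources used here.

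Expected counts were rounded, moving a library total by at most 26.1. Genes were kept by edgeR's filterByExpr (minimum count 10), and scaled with TMM, which gave CPM. Differences were tested with edgeR 4.0.16 (quasi-likelihood F test, R 4.3.3), adjusted by Benjamini-Hochberg over 14814 genes and called under 0.05. SE is the log2 fold change divided by the square root of F. Subset contrasts, averaged over both times, came from 8 subset-by-time groups plus animal. Treatment and animal terms came from models with subset. The animal named in the labels pairs libraries: deviations of libraries of 1 animal from their group means correlated at r = 0.195 to 0.501 across genes. Alternatives were DESeq2 1.42.0, RLE factors, no filter, no animal term, single times and leaving out libraries. All 9 genes were named whatever their values. For each, the 2 genes most alike with a mean of at least 5 CPM were named, and from each list up to 2 called genes per direction with the largest change; some of these are not reported here. The genes and lists were chosen with earlier results of these data known. The p-values measure the spread between libraries of 2 animals, and not that between draws. Amplified copies were not told apart from separate molecules. The scripts were tested on simulated data.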

Additional observations from a re-analysis of the deposited data

Results flagged for a closer look

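GATA3 measured 381 CPM in the CD8 memory before library of RhDBCb, far above the other 3 CD8 memory libraries at 151 to 184 CPM. RORA measured 301 CPM in that library, against 133 to 153 CPM in the other 3. These were the 2 sets with a lone extreme library among 27 sets of 4 libraries of 1 gene and subset examined by Dixon's ratio, where chance gives about 1 in 20. Both fell in 1 library. It also held the highest TBX21, MAF, AHR and BATF and the lowest EOMES, FOXP3 and IKZF2 of the CD8 memory libraries. MKI67 measured 112 CPM there. The share of all genes tested that were highest or lowest in that library was not counted. Nothing particular to these factors can therefore be read from it.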

How the results depend on the processing

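In each list below the order of comparisons is CD8 memory against naive, CD4 memory against naive, CD8 against CD4 naive and CD8 against CD4 memory cells. Genes called in all were 1245, 830, 247 and 603, and members called 7, 5, 4 and 3. DESeq2 called 2258, 1648, 560 and 1252 genes, and 5 members in the last. Without the animal term (no replicate block) there were 427, 238, 102 and 179 genes, and 3, 1 and 1 members in the last 3. The animal pairs the libraries, and without it 9 member calls were lost with direction kept: FOXP3 in all 4 comparisons (log2 1.33 and 1.83 for memory against naive, -1.996 and -2.51 for CD8 against CD4 cells), RORA in CD8 memory (1.53), MAF in CD4 memory (2.00) and in naive cells (-3.02), and TBX21 in CD8 against CD4 naive (1.86) and memory cells (1.19). Before libraries alone gave 484, 165, 120 and 143 genes, with 3 members in CD4 memory against naive cells and 2 in CD8 against CD4 naive cells. After libraries alone gave 143, 198, 56 and 159 genes, with 1 member in CD8 memory against naive cells (EOMES) and 1 in CD8 against CD4 naive cells. Leaving out the 4 before libraries of RhDBCb gave 760, 496 and 372 genes in all but CD8 against CD4 naive cells, where 2 members were called. For the CD8 minus CD4 difference of the memory step DESeq2 called 86 genes, and 0 were called with no replicate block, before alone, after alone and without those 4 libraries. After against before over all subsets, DESeq2 called 177 genes and 1 member, and no replicate block left 0 genes. Without those 4 libraries this comparison rested on RhM22 alone. DESeq2 called 9 genes in CD4 naive cells, 1671 genes and 3 members for the difference between animals in change, 2519 genes in RhDBCb and 248 in RhM22.

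Leaving out 1 library at a time gave 758 to 1208 genes for CD8 memory against naive, 427 to 896 for CD4 memory against naive and 301 to 610 for CD8 against CD4 memory cells, and 1 to 4 members for CD8 against CD4 naive cells. The difference in memory step had 0 to 2 genes, after against before over all subsets 0 to 3, RhM22 0 to 12, RhDBCb 225 to 2188 with 1 or 2 members, and the difference between animals in change 99 to 1314 with 0 to 3 members. The cause of these shifts was not tested, beyond the fewer libraries. RLE factors changed no call of a member and no direction of a call was turned by any setting. Fits without a filter ended 1 call of a member. FOXP3 in CD8 naive cells of RhDBCb, at 14 counts, is the member value with least depth beside MAF at 11 counts.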

Other observations

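The lengths that the deposited FPKM values imply were 146 kb for IKZF2, 136 kb for AHR and 124 kb for RORA, against 9.38 kb for EOMES and 12.6 kb for FOXP3. In these FPKM values genes with long introns are therefore listed low beside compact genes.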
